A study of Homo sapiens with 12 samples.

Results

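The genes described here are 10 markers of the B lineage: CD38, CR2, CD72, MS4A1, CD24, CD37, FCER2, FCRLA, SDC1 and MZB1. They were taken by symbol from the array's annotation, which gave them 25 probe sets, and they are 10 of 19775 genes tested. Of the 10, 8 encode proteins of the cell surface, while FCRLA and MZB1 encode proteins that stay inside the cell, mainly in the endoplasmic reticulum. Levels came from 12 expression arrays of total RNA from L1236 and L428, established cell lines of classical Hodgkin lymphoma. The 4 groups of 3 arrays were L1236 treated with 5-Aza-dC, untreated L1236, L428 treated with 5-Aza-dC, and untreated L428. Treated cells had received 1 µM of the drug for 24 h, were washed, and were grown for a further 72 h in normal medium before RNA was taken. The descriptions of the untreated cells name no culture time or washing. Any difference in these cannot be told apart from the drug. This drug, decitabine, is an analogue of deoxycytidine. Once built into DNA it traps DNA methyltransferases, and methylation is lost as cells divide. DNA methylation itself was not analysed here. The labels say that the experiment was done in triplicate but not whether cultures were separate, so p-values cover no more than the spread among these arrays, which may be technical. Each line stands for 1 patient's tumour.

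The lines descend from B cells, and classical Hodgkin lymphoma is known for the loss of much of the B-cell programme. CR2 (CD21), CD72, MS4A1 (CD20), CD37, FCER2 (CD23) and FCRLA belong mostly to the mature B-cell stage. CD38, SDC1 (CD138) and MZB1 are known from plasma cells, and CD38 also from germinal-centre and activated cells, while CD24 is high on early and transitional B cells. Promoter methylation is one of the ways in which lineage genes are known to be silenced in this tumour.

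The label of untreated L1236 replicate 1 conflicts: its source name describes treated L428 cells and its description untreated L1236 cells. It was kept as untreated L1236, and over all genes it correlated most closely with untreated L1236 replicate 3. For treated L428 replicate 1 the drug is written as Aza in the source name but as 5-Aza-dC in the description. Replicate 1 of both treated groups stood apart from the other treated arrays, with deviations from the group mean that had an SD of 0.384 in L1236 and 0.449 in L428, against 0.156 to 0.315 on the other 10 arrays. Treated L428 replicate 1 correlated more closely with an untreated L428 array (0.989) than with treated L428 replicates 2 and 3 (0.981 and 0.983). Where leaving out either of these arrays changed a member's call, the result without it is given. Values that moved without a change of call are given only in part. TNFRSF8 (CD30), a marker of the Hodgkin cell, averaged 9.59 in treated L1236, 9.57 in untreated L1236, 10.17 in treated L428 and 10.39 in untreated L428. It was high in every group, so it cannot tell the lines apart and does not bear on the label conflict. All levels are log2 signals, and the array medians over all probe sets were 3.01 to 3.09. Values of 2 to 3 are thus below the array medians, in the lower part of the scale, and a fold change from such values is uncertain in size. In cultures of many cells, fewer cells with a transcript and less transcript per cell cannot be told apart.

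By the calls, CD38 and CR2 rose with the drug in L428, and CD72 and CD24 rose and MZB1 fell in L1236. The other 5 genes were called in neither line. CD24 was also higher on all treated than on all untreated L428 arrays, but was not called there. Calls required an adjusted p below 0.05 in limma, after Benjamini-Hochberg adjustment over all genes. Values after ± are SE unless SD is named. For each gene the SE comes from 1 spread shared by the 4 groups, so it also reflects the other line's arrays. In L1236, 3 of the 10 members were called, against 14.9% of all genes, and in L428 2 of 10, against 4.65% of all genes. The median change of the 10 was -0.02 in L1236 and 0.91 in L428, beside -0.03 and -0.02 over all genes. CD38, CR2 and CD72 also differed between the lines in their response, as 3 of 10 members did against 4.62% of all genes. Without treatment the lines differed in 6 of 10 members, against 28.8% of all genes: CD37, FCER2, MZB1 and SDC1 were higher and CD24 and CR2 lower in L1236. With 10 genes these shares rest on few calls. The members were also chosen with earlier results of these data known, so the shares describe them and test nothing against all genes.

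The directions over all genes depended on scaling. In L1236, 1699 genes were called higher and 1256 lower, but 1875 and 4671 after quantile normalization. After centring each array on the median level of the genes tested, the L1236 numbers were 1205 and 12893. That median is not the array median over all probe sets given above, which was nearly the same on all arrays. In L428, 656 were called higher and 264 lower, but 768 and 1824 after quantile normalization and 858 and 11984 after centring. For the difference between the responses the numbers were 527 and 387, or 458 and 509 after centring, and for the untreated lines 3013 and 2686, or 2393 and 3971. Centring moved the median change of all genes by -0.48 in L1236, -0.43 in L428 and -0.24 between the untreated lines. The 5 members called in either line's response kept their direction and their call under both scalings.

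**Figure D1:**
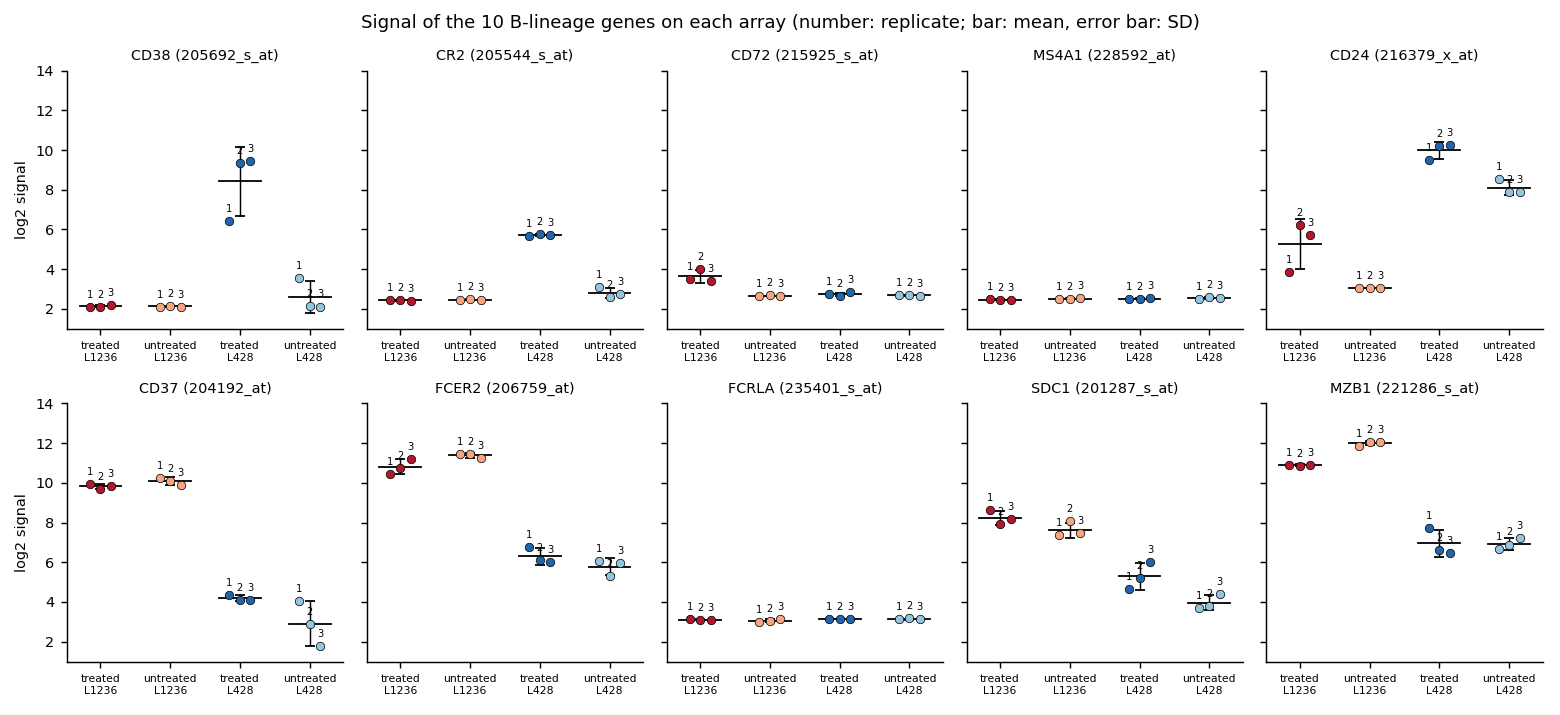
Log2 signal (vertical axis) of each of the 10 genes on each array in the 4 groups (horizontal axis), with 1 probe set per gene. Points are arrays numbered by replicate, horizontal bars group means and error bars SD (n = 3). CD38 and CR2 are high on the treated L428 arrays only, and CD37, FCER2, SDC1 and MZB1 are higher on all L1236 arrays than on all L428 arrays.

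**Figure D2:**
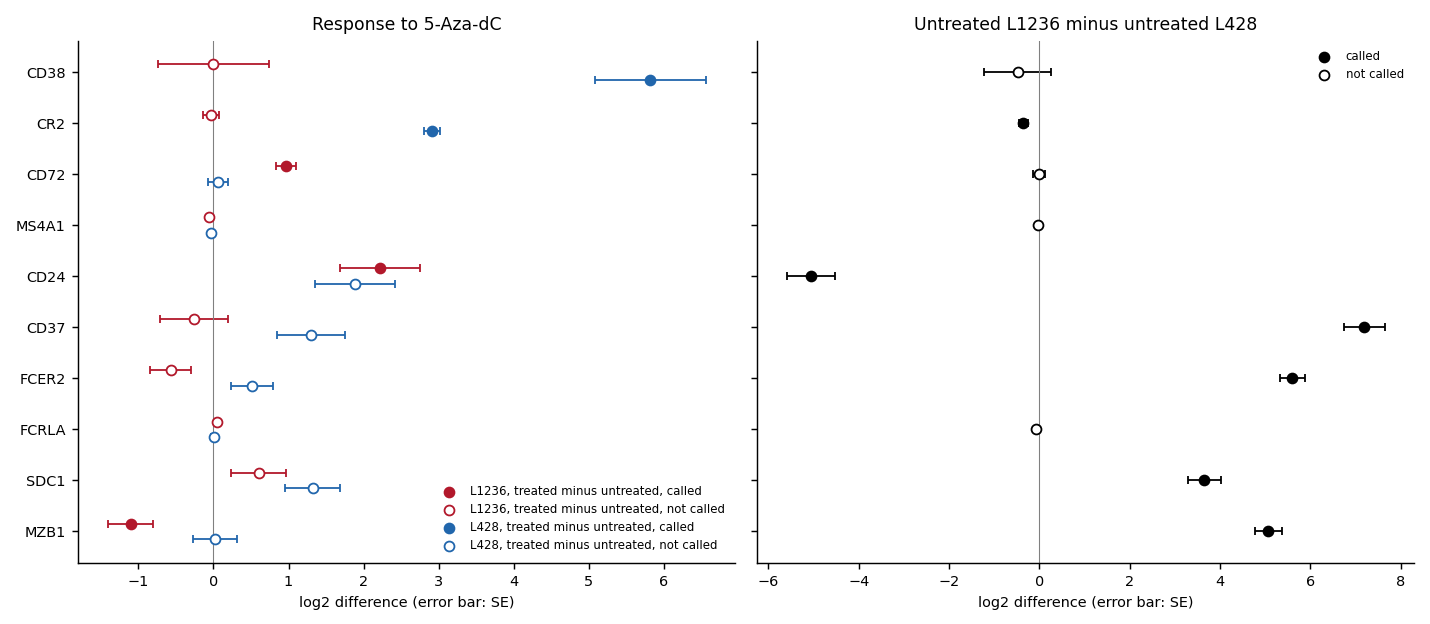
Log2 differences with their SE for the 10 genes (rows). The left panel gives treated minus untreated cells for L1236 (red) and L428 (blue), and the right panel untreated L1236 minus untreated L428, with filled points called by limma. CD38 and CR2 have filled points in L428, CD72, CD24 and MZB1 in L1236, and 6 genes in the right panel.

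CD38 encodes an ectoenzyme that consumes NAD and makes cyclic ADP-ribose, and it also acts as a receptor on lymphocytes. Its 1 probe set gave 2.11, 2.08 and 2.18 in treated L1236 and 2.11, 2.13 and 2.12 in untreated L1236, so the gene stayed at the lower end of the scale on all 6 arrays of that line. Treated L428 arrays gave 6.44, 9.37 and 9.45, against 3.54, 2.15 and 2.12 in untreated L428. The L428 groups did not overlap, and in each of them replicate 1 was the array nearest to the other group. The rise was 5.82 ± 0.74 log2 units (limma, adjusted p = 0.00302). Untreated L428 replicates 2 and 3 lay within the range of the L1236 arrays, so no fold is given. The change in L1236 was 0.00 ± 0.74 (adjusted p = 0.9997), and the L1236 response minus the L428 response was -5.82 ± 1.04 (adjusted p = 0.0177). The group SDs were 1.72 in treated and 0.81 in untreated L428, against 0.05 and 0.01 in treated and untreated L1236. With only the L1236 arrays in the fit the SE of the L1236 change was 0.03. The rise was 6.81 ± 0.37 without treated L428 replicate 1 and 7.28 ± 0.05 without all arrays numbered 1. With only the L428 arrays in the fit the rise was not called (adjusted p = 0.104), and the difference between the lines was not called without untreated L428 replicate 2 (0.0522) or 3 (0.0507) or untreated L1236 replicate 3 (0.0507).

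The window from 250 bases before to 50 bases after the start of CD38 is shown because the gene had the largest response of the 10. It is chr4:15778078-15778377 on the plus strand of GRCh38.p14 (RefSeq), with each CpG, the dinucleotide that DNA methyltransferases act on, in capitals.
CD38: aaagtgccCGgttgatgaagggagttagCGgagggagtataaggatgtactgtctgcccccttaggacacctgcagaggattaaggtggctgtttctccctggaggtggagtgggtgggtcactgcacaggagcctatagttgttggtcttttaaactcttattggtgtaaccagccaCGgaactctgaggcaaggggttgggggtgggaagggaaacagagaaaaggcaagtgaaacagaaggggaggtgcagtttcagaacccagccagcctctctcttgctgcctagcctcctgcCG
It held 4 CpG, and 75.5% of the 35116 promoter windows in the RefSeq table held at least as many.

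CR2 encodes the complement receptor for C3d, which pairs with the tetraspanin CD81 on B cells and is the entry receptor of Epstein-Barr virus. The probe set with its highest mean (205544_s_at) gave 2.44, 2.44 and 2.40 in treated L1236, against 2.44, 2.48 and 2.46 in untreated L1236. The values in treated L428 were 5.66, 5.79 and 5.71, against 3.09, 2.59 and 2.76 in untreated L428. The treated L428 arrays lay close together and far above all 9 others, and replicate 1 did not stand apart among them. The rise in L428 was 2.91 ± 0.10, or 7.51-fold (limma, adjusted p = 2.78e-06), and the change in L1236 was -0.03 ± 0.10 (adjusted p = 0.845). The L1236 response minus the L428 response was -2.94 ± 0.15 (adjusted p = 8.68e-06). The rise in L428 and this difference were called under all 21 and all 20 alternative settings. The other probe set of CR2 (244097_at) stayed between 2.92 and 3.19 on all 12 arrays, and its change in L428 was -0.06 ± 0.04 (adjusted p = 0.551 over all probe sets). The 2 probe sets thus disagree. In the 3 groups other than treated L428 the second was the brighter one, so the first was chosen as the gene's probe set through the group in which it rose. With the mean of both as the gene's level the rise was 1.43 ± 0.05 (adjusted p = 3.38e-06).

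The promoter window of CR2, the member with the smallest adjusted p in L428, is chr1:207454078-207454377 on the plus strand (GRCh38.p14, RefSeq), with CpG in capitals.
CR2: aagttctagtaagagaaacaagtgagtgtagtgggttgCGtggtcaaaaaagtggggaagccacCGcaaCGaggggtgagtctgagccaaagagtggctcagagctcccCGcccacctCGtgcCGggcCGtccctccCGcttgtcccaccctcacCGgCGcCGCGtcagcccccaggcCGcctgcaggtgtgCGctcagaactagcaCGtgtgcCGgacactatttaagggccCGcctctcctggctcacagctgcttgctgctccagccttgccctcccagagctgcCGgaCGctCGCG
It held 21 CpG, and 39.5% of all windows held at least as many, so it is denser in CpG than the window of CD38 above.

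CD72 encodes a C-type lectin of B cells that binds SEMA4D and recruits the phosphatase PTPN6, which dampens B-cell receptor signals. Its 1 probe set gave 3.49, 4.01 and 3.40 in treated L1236, against 2.66, 2.67 and 2.66 in untreated L1236. In L428 the treated arrays read 2.73, 2.67 and 2.83, against 2.68, 2.69 and 2.67 in untreated L428. All treated L1236 arrays lay above the other 9, but their mean was higher than that of only 42.9% of genes. The rise in L1236 was 0.97 ± 0.13, or 1.96-fold (limma, adjusted p = 0.00191), and it was called under all 21 alternatives. The change in L428 was 0.06 ± 0.13 (adjusted p = 0.809). The L1236 response minus the L428 response was 0.91 ± 0.19 (adjusted p = 0.0311). That difference was not called without any 1 of the untreated L1236 arrays, treated L428 replicates 2 or 3, or any 1 of the untreated L428 arrays (0.0517 to 0.0801), nor without all arrays numbered 1 (0.0665), nor with the replicate number as a block (0.0534).

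The promoter window of CD72, whose rise in L1236 was called under all 21 alternatives, is chr9:35618364-35618663 on the minus strand (GRCh38.p14, RefSeq), with CpG in capitals.
CD72: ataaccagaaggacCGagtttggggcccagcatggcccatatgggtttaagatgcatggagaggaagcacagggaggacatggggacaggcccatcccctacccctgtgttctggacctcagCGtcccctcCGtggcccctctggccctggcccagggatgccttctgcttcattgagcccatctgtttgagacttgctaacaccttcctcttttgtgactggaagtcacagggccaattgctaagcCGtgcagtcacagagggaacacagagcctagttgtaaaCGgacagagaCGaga
It held 6 CpG, and 66.3% of all windows held at least as many.

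**Figure D3:**
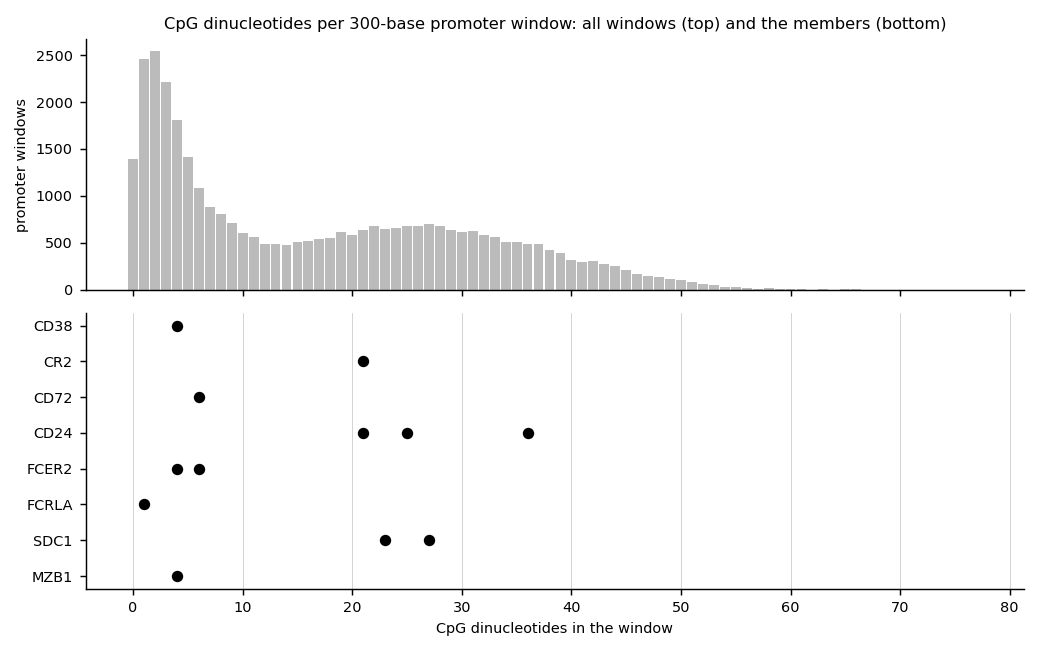
The number of CpG dinucleotides in each 300-base promoter window (horizontal axis) for all 35116 windows of the RefSeq table (upper panel, bars: number of windows) and for the windows of 8 members (lower panel, 1 point per window). The windows of CD38, CD72, FCER2, FCRLA and MZB1 hold 1 to 6 CpG and those of CR2, CD24 and SDC1 21 to 36.

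RefSeq windows were matched for 8 of the 10 genes, all but MS4A1 and CD37. The windows of CR2, CD24 (3 starts) and SDC1 (2 starts) held 21 to 36 CpG, above the median of 14 over all windows. Those of CD38, CD72, FCER2 (2 starts), FCRLA and MZB1 held 1 to 6. Of the 4 members that rose in a line, CR2 and CD24 thus have dense windows and CD38 and CD72 sparse ones. These counts describe the reference sequence, and the arrays do not tell which start was used. CpG outside the windows, such as those further into a gene, were not counted.

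CD24 encodes a small, heavily glycosylated protein held in the membrane by a lipid anchor, a ligand of SIGLEC10 and of P-selectin. Its brightest probe set (216379_x_at) gave 3.87, 6.22 and 5.71 in treated L1236, against 3.05, 3.05 and 3.06 in untreated L1236. Treated L428 arrays gave 9.50, 10.18 and 10.27, against 8.56, 7.86 and 7.89 in untreated L428. In neither line did the groups overlap, and replicate 1 was the lowest treated array in each. The rise in L1236 was 2.21 ± 0.53, or 4.64-fold (limma, adjusted p = 0.0243), and the change in L428 was 1.88 ± 0.53, or 3.69-fold, which was not called (adjusted p = 0.0842). The L1236 response minus the L428 response was 0.33 ± 0.75 (adjusted p = 0.941), so the responses were not shown to differ. That difference was 1.03 ± 0.39 without treated L1236 replicate 1 (adjusted p = 0.160). Without treated L428 replicate 1 it was 0.09 ± 0.80 (adjusted p = 0.970).

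The calls of CD24 depended on single arrays and on the processing. Without treated L1236 replicate 1 the rise in L1236 was 2.91 ± 0.29 (adjusted p = 3.16e-04), while it was not called without treated L1236 replicate 2 or 3 or any 1 of the untreated L1236 arrays (0.0606 to 0.0949), nor with only the L1236 arrays in the fit (0.0981). The change in L428 was called without treated L428 replicate 1 (2.12 ± 0.60, adjusted p = 0.0438), without treated L1236 replicate 1 (0.00707) and without all arrays numbered 1 (2.35 ± 0.16, adjusted p = 5.75e-04). With the mean of the probe sets as the gene's level it was also called, at 1.645 ± 0.38 (limma, adjusted p = 0.0453), beside 1.37 ± 0.38 (0.0403) in L1236. Median centring (0.0214) and array weights (2.25e-04) gave a call in L428 too. With only the L428 arrays in the fit the change was 1.88 ± 0.30 and not called (0.0927).

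The 6 probe sets of CD24 were alike in ranking L428 above L1236 but less so in the responses. Over the 12 arrays their pairwise correlations were 0.913 to 0.997, as a description of probe sets on the same arrays. All 6 had treated L428 above untreated L428 without overlap, by 1.13 to 1.94 log2 units. With adjustment over all probe sets, 208651_x_at (1.86 ± 0.25, adjusted p = 0.00555) and 266_s_at (1.84 ± 0.35, adjusted p = 0.0275) were called in L428. In L1236 the called ones were 209771_x_at at 2.79 ± 0.69 (adjusted p = 0.0386), 209772_s_at at 1.37 ± 0.26 (0.0131) and 216379_x_at (0.0347). The L1236 groups overlapped for 208650_s_at, 208651_x_at and 266_s_at. 208651_x_at changed by 0.16 ± 0.25 in L1236, and its responses differed between the lines (L1236 minus L428 -1.70 ± 0.35, adjusted p = 0.0437), the 1 of the 6 probe sets for which they did. CD24 has processed copies elsewhere in the genome, and probe sets with an x in their name can match other transcripts, so its signal is uncertain as to the locus.

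**Figure D4:**
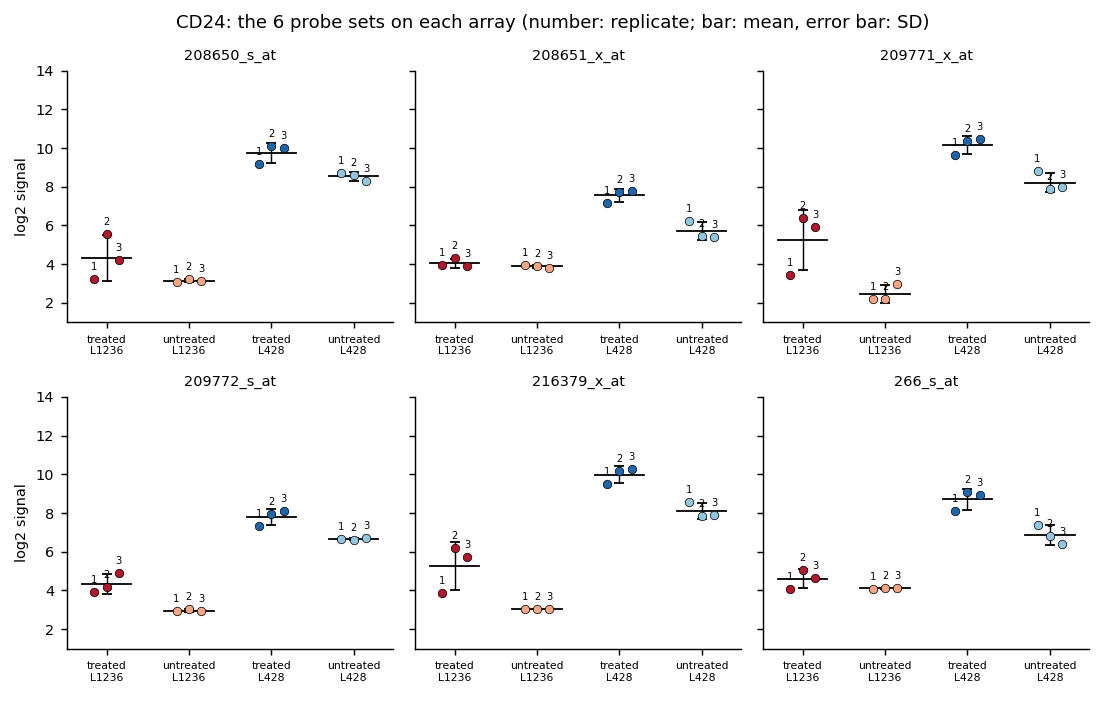
Log2 signal (vertical axis) of the 6 probe sets of CD24 on each array in the 4 groups (horizontal axis), with points numbered by replicate, bars for means and error bars for SD (n = 3). All 6 are lower on every L1236 array than on every L428 array, and treated L428 arrays lie above untreated ones in each panel.

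MS4A1 encodes CD20, a tetraspanning membrane protein of B cells and the target of rituximab. Its 4 probe sets stayed between 1.63 and 2.59 on all 12 arrays, below the array medians. The brightest (228592_at) gave 2.50, 2.43 and 2.45 in treated L1236, against 2.52, 2.52 and 2.53 in untreated L1236. Its L428 levels were 2.50, 2.51 and 2.53 with the drug, against 2.52, 2.59 and 2.52 without. The changes were -0.06 ± 0.03 in L1236 (limma, adjusted p = 0.201) and -0.03 ± 0.03 in L428 (adjusted p = 0.602). MS4A1 was thus called in neither line.

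CD37 encodes a tetraspanin of mature B cells. Its brighter probe set (204192_at) gave 9.94, 9.69 and 9.84 in treated L1236, against 10.26, 10.11 and 9.88 in untreated L1236. The values in treated L428 were 4.36, 4.10 and 4.11, against 4.04, 2.87 and 1.77 in untreated L428, so the untreated arrays of that line were widely spread and the treated ones were not. The changes were -0.26 ± 0.45 in L1236 (limma, adjusted p = 0.695) and 1.29 ± 0.45 in L428 (adjusted p = 0.152). Without untreated L428 replicate 1 the change in L428 was 1.87 ± 0.28 (adjusted p = 0.0106) and the L1236 response minus the L428 response was -2.13 ± 0.38 (adjusted p = 0.0208), against -1.56 ± 0.64 (adjusted p = 0.256) with all arrays. Without untreated L428 replicate 3 these values were 0.73 ± 0.30 (adjusted p = 0.272) and -0.995 ± 0.40 (0.303), so their size depended on which untreated array was left out. Without all arrays numbered 1 they were called, at 1.78 (0.0176) and -2.01 (0.0430). The other probe set (238321_at) stayed between 2.02 and 2.05 on all arrays, including those of L1236, so the 2 probe sets disagree.

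FCER2 encodes the low-affinity receptor for IgE, which ADAM10 sheds from the surface. Its brighter probe set (206759_at) gave 10.46, 10.77 and 11.21 in treated L1236, against 11.43, 11.46 and 11.26 in untreated L1236. In L428 the treated arrays read 6.79, 6.11 and 5.99, against 6.07, 5.30 and 5.97 in untreated L428. The L1236 groups did not overlap and the L428 groups did. The changes were -0.57 ± 0.28 in L1236 (limma, adjusted p = 0.213) and 0.52 ± 0.28 in L428 (adjusted p = 0.364), and the L1236 response minus the L428 response was -1.09 ± 0.39 (adjusted p = 0.191). The change in L428 was 0.27 without treated L428 replicate 1 (adjusted p = 0.656) and 0.28 without untreated L428 replicate 2 (0.787). The second probe set (206760_s_at) gave -0.74 ± 0.57 in L1236 and 0.74 ± 0.57 in L428, which were not called either (adjusted p = 0.392 and 0.553 over all probe sets).

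SDC1 encodes syndecan-1, a heparan sulphate proteoglycan that marks plasma cells. Its brighter probe set (201287_s_at) gave 8.62, 7.90 and 8.16 in treated L1236, against 7.35, 8.06 and 7.46 in untreated L1236. Treated L428 arrays gave 4.65, 5.21 and 6.01, against 3.71, 3.80 and 4.40 in untreated L428. The L1236 groups overlapped, and the L428 groups did not. The changes were 0.61 ± 0.37 in L1236 (limma, adjusted p = 0.299) and 1.32 ± 0.37 in L428 (adjusted p = 0.0818). Without treated L428 replicate 1 the change in L428 was called, at 1.64 ± 0.35 (adjusted p = 0.0146). The second probe set (201286_at) gave -0.22 ± 0.46 in L1236 and 0.67 ± 0.46 in L428 (adjusted p = 0.752 and 0.541 over all probe sets), with overlapping groups in both lines.

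MZB1 encodes a chaperone of the endoplasmic reticulum that helps antibody assembly together with HSP90B1. Its brighter probe set (221286_s_at) gave 10.91, 10.85 and 10.92 in treated L1236, against 11.87, 12.07 and 12.06 in untreated L1236. The values in treated L428 were 7.74, 6.64 and 6.47, against 6.66, 6.89 and 7.24 in untreated L428. The L1236 groups were tight and did not overlap, whereas the L428 groups did. MZB1 fell by 1.10 ± 0.30 log2 units in L1236 (limma, adjusted p = 0.0376), the 1 member that fell, and its change in L428 was 0.02 ± 0.30 (adjusted p = 0.982). The L1236 response minus the L428 response was -1.12 ± 0.42 (adjusted p = 0.203), and -0.73 without treated L428 replicate 1 (adjusted p = 0.0663).

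The second probe set of MZB1 (223565_at) followed the first closely, with a correlation of 0.998 over the 12 arrays. It changed by -1.21 ± 0.25 in L1236 (adjusted p = 0.0192 over all probe sets), while the first was at 0.0529 under that adjustment. The fall was not called without untreated L428 replicate 2 or without any 1 of the L1236 arrays (0.0563 to 0.116), nor with the replicate number as a block (0.0597). Without treated L428 replicate 1 it was called at 0.00147 with the same size. In L428 the change was -0.51 ± 0.13 (adjusted p = 0.0339) without all arrays numbered 1.

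FCRLA encodes an Fc receptor-like protein that binds immunoglobulin inside B cells. Its brightest probe set (235401_s_at) gave 3.14, 3.07 and 3.10 in treated L1236, against 2.98, 3.05 and 3.14 in untreated L1236. Its L428 levels were 3.13, 3.13 and 3.16 with the drug, against 3.12, 3.17 and 3.13 without, and the groups overlapped in both lines. The changes were 0.05 ± 0.04 in L1236 (limma, adjusted p = 0.431) and 0.00 ± 0.04 in L428 (adjusted p = 0.995). A second probe set (235372_at) gave 2.51, 3.33 and 3.42 in treated L1236, against 2.35, 2.51 and 2.47 in untreated L1236. Its L428 levels were 2.70, 2.87 and 3.81 with the drug, against 2.50, 2.77 and 2.75 without. Some treated arrays thus lay higher on that probe set, but the changes of 0.64 ± 0.31 and 0.45 ± 0.31 were not called (adjusted p = 0.235 and 0.541 over all probe sets). The third probe set (235400_at) stayed between 2.53 and 2.80.

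Without treatment, 4 members were far higher in L1236 than in L428. The difference was 7.19 ± 0.45 for CD37 (limma, adjusted p = 2.98e-06), 5.60 ± 0.28 for FCER2 (adjusted p = 6.12e-07), 5.07 ± 0.30 for MZB1 (adjusted p = 1.78e-06) and 3.65 ± 0.37 for SDC1 (adjusted p = 6.39e-05). CD24 ran the other way, at -5.05 ± 0.53 (adjusted p = 8.54e-05). All untreated L1236 arrays lay beyond all untreated L428 arrays for these 5 genes, and their calls held under all 21 alternatives. The difference of CR2 was small, -0.35 ± 0.10 (adjusted p = 0.0303), at the lower end of the scale, and was not called without untreated L428 replicate 3 or any 1 of the untreated L1236 arrays (0.0558 to 0.0819). Nor was it called after quantile normalization (0.0579), with only the arrays compared (0.130) or without all arrays numbered 1 (0.0623), and it was -0.22 without untreated L428 replicate 1. The second probe sets of FCER2, MZB1 and SDC1 gave 6.10, 5.50 and 4.10, and the other 5 of CD24 gave -1.82 to -5.76. Those of CD37 and CR2 gave -0.005 and -0.02 and were not called, and with the mean of its probe sets the difference of CD37 was 3.59.

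In the order of group means, CD37, FCER2, SDC1 and MZB1 had both L1236 groups above both L428 groups, and CD24 had both L428 groups above both L1236 groups. Within a line, neighbours in that order were not called apart except for MZB1 and CD24 in L1236. For CD38 and CR2 the treated L428 group stood first and the other 3 groups lay at 2.12 to 2.60 for CD38 and at 2.43 to 2.81 for CR2. For CD72 the treated L1236 group stood first and the other 3 lay at 2.66 to 2.74. The 4 group means of MS4A1 lay at 2.46 to 2.55 and those of FCRLA at 3.06 to 3.14.

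The genes whose levels over the 12 arrays were most alike to CD38 by Pearson's correlation were DDX60L (0.984), PRAMEF11 (0.983) and RFPL2 (0.981). RFPL2 averaged 7.12 ± 2.14 in treated L428 and 2.33 ± 0.01 in untreated L428 (SD, n = 3 each), against 2.33 in both L1236 groups. For CR2 they were TIMP2 (0.990), H1-4 (0.989) and IFNL2 (0.984), of which IFNL2 averaged 8.42 ± 0.80 in treated L428 and 2.25 ± 0.02 in untreated L428. For CD72 they were CNDP1 (0.994), SHE (0.993) and FAIM2 (0.990), of which SHE averaged 5.11 ± 0.77 in treated L1236 and 2.27 ± 0.01 in untreated L1236. These correlations compare genes on the same 12 arrays and rest mainly on 1 group being high, and PRAMEF11, H1-4 and IFNL2 belong to families of near-identical genes.

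Among 17 measured genes that bind the members' products, process them or make their sugar chains, 4 rose and 1 fell in L1236 and 1 rose in L428 (median changes 0.51 and 0.27, beside -0.03 and -0.02 over all genes). Over all genes 14.9% were called in L1236 and 4.65% in L428, which is the background for each list that follows. In L1236, SIGLEC10, a receptor of CD24, rose by 4.01 ± 0.26 (limma, adjusted p = 2.16e-05), C3, the source of the ligand of CR2, by 3.76 ± 0.53 (0.00212), and SEMA4D, the ligand of CD72, by 2.12 ± 0.34 (0.00441). EXT2, an enzyme of heparan sulphate synthesis, changed by -0.86 ± 0.24 (0.0401). In L428, IFITM1, a membrane protein found with CR2 and CD81 and an interferon-induced gene, rose by 2.70 ± 0.24 (4.84e-04). CD81 averaged 11.23 in treated L1236, 11.01 in untreated L1236, 11.58 in treated L428 and 11.41 in untreated L428, and PTPN6 averaged 10.87, 10.23, 7.54 and 7.02 in the same groups.

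Of 36 other surface genes of the B lineage, 9 rose and 6 fell in L1236 and 3 rose in L428 (median changes -0.02 in each line). In L1236 the early activation marker CD69 rose by 4.30 ± 0.39 (limma, adjusted p = 2.19e-04), the chemokine receptor CXCR5 by 3.69 ± 0.38 (4.40e-04) and the activation marker CD83 by 3.88 ± 0.53 (0.00187). CD27, a receptor of memory B cells and plasma cells, changed by -1.47 ± 0.11 (5.63e-05), LY9 by -1.87 ± 0.31 (0.00466) and the purine receptor P2RX5 by -1.40 ± 0.26 (0.00887). In L428 CD52 rose by 3.69 ± 0.63 (0.0136), SLAMF1 by 2.27 ± 0.45 (0.0251) and CD27 by 0.52 ± 0.11 (0.0328). CD79A, a chain of the B-cell receptor, averaged 3.78 in treated L1236, 3.53 in untreated L1236, 3.59 in treated L428 and 3.60 in untreated L428.

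Of 21 relatives of the members in the MS4A, tetraspanin and syndecan families, 4 rose and 1 fell in L1236 and 1 rose in L428 (median changes -0.02 and -0.01). The tetraspanin gene CD9 rose in both lines, by 4.89 ± 0.41 in L1236 (limma, adjusted p = 1.23e-04) and by 4.41 ± 0.41 in L428 (6.03e-04). In L1236 SDC4 rose by 3.62 ± 0.54 (0.00297) and CD63 by 0.77 ± 0.16 (0.0123), and SDC3 changed by -1.89 ± 0.26 (0.00183). Of 11 ectoenzymes and genes of NAD and adenosine metabolism, 2 rose and 1 fell in L1236 and 2 rose in L428 (median changes -0.04 and 0.60). ART3, an ADP-ribosyltransferase relative, rose by 5.83 ± 0.80 in L1236 (0.00197) and by 4.61 ± 0.80 in L428 (0.0147). ENTPD1 (CD39), which degrades extracellular ATP, rose by 1.83 ± 0.29 in L428 (0.0105). In L1236 NAMPT, which makes NAD precursors, rose by 1.69 ± 0.47 (0.0442) and DPP4 changed by -1.00 ± 0.18 (0.00811).

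Of 20 transcription factors of the B lineage, 3 rose and 1 fell in L1236 and 1 rose in L428 (median changes 0.18 and 0.15), beside calls in 14.9% and 4.65% of all genes. SPIB rose by 6.54 ± 0.31 in L1236 (limma, adjusted p = 3.07e-06), where it averaged 9.19 with the drug and 2.66 without. PRDM1, the regulator of plasma-cell fate, rose by 1.65 ± 0.10 (1.16e-05) and IRF8 by 1.64 ± 0.33 (0.0123) in L1236, and IKZF3 changed by -0.85 ± 0.19 (0.0196). PAX5, the B-cell identity factor, rose in L428 by 1.22 ± 0.28 (0.0445), where it averaged 6.54 with the drug and 5.32 without. POU2AF1, a coactivator of B-cell genes, averaged 12.23 in treated L1236, 13.41 in untreated L1236, 2.39 in treated L428 and 2.39 in untreated L428.

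Of 15 markers of the Hodgkin cell, 8 rose in L1236 and 2 in L428, beside calls in 14.9% and 4.65% of all genes (median changes 0.84 and 0.20, beside -0.03 and -0.02). CCL22 rose by 6.46 ± 0.86 in L1236 (limma, adjusted p = 0.00168) and by 3.76 ± 0.86 in L428 (0.0433). The others named by rule were CCL17 at 3.01 ± 0.20 (2.68e-05) and LGALS1 at 0.84 ± 0.10 (0.00103) in L1236, and CD274 at 2.65 ± 0.58 (0.0377) in L428. Some markers of other cell types were also called, beside calls in 14.9% and 4.65% of all genes. The T-cell and NK-cell list had 3 of 16 genes higher in L1236 and 1 in L428, the myeloid list 3 and 2 of 13, and the stromal, endothelial and epithelial list 6 and 2 of 14, and no gene of these 3 lists was called lower. Their median changes were 0.05, -0.01 and 0.80 in L1236 and -0.01, -0.02 and -0.01 in L428. The mean log2 level of the T-cell and NK-cell markers was 3.20 to 3.36 in treated L1236, against 2.65 to 2.73 in untreated L1236. In L428 it was 2.89 to 3.05 with the drug, against 2.73 to 2.89 without. For myeloid markers it was 3.66 to 4.17 in treated and 3.06 to 3.09 in untreated L1236, and 3.38 to 3.51 in treated against 2.91 to 2.99 in untreated L428. For the third list it was 5.49 to 5.71 in treated and 3.87 to 3.91 in untreated L1236, and 3.77 to 4.001 in treated against 3.30 to 3.54 in untreated L428. The called markers with the smallest adjusted p were CD8A, LCK and CD3D in L1236 and CD2 in L428, TYROBP, ITGAM and AIF1 in L1236 and TYROBP and AIF1 in L428, and EPCAM, THY1 and KRT19 in L1236 and THY1 and CDH1 in L428. CD3E of the T-cell and NK-cell list had group means of 1.74 to 1.76, and CD14 of the myeloid list 2.26 to 2.28, below the array medians. Both were picked after their values were seen and do not stand for their lists, in which the genes named above were called higher. The part of these markers in the members' changes was not tested.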

How the data were processed

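RNA was measured on 12 arrays. Each deposited value is a log2 signal that the authors computed with RMA, per the submitters' processing notes; its version is not given in the sources used here, nor whether all arrays were normalized together. The 54675 probe set identifiers belong to a 3' expression array, although the text on the design names a whole-transcript type. No detection calls were used.

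Of the probe sets, 41097 had 1 gene symbol in the annotation, 1801 had several and 11777 had none, and 41037 were updated by Entrez identifier to RefSeq (GRCh38.p14). Each gene was read from its brightest probe set by mean over the 12 arrays. limma 3.58.1 (R 4.3.3) fitted 4 group means to all 12 arrays (two-sided, empirical Bayes, Benjamini-Hochberg over 19775 genes), and also to all 54613 non-control probe sets. The fit was run on simulated data with independent values, 1 spread per gene in all groups and changes in treated L428 only. Group spreads differ on the real arrays, so that run cannot tell how the calls behave under unequal spread. CpG dinucleotides were counted in RefSeq promoter windows.

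Groups came from the descriptions. As a check of pairing, the deviations of same-numbered arrays from their group means correlated at 0.164 to 0.25 between the L428 groups and 0.107 to 0.36 between the untreated lines, over 0.1 in every pair, but at -0.018 to 0.063 between the L1236 groups. In the first and second of these comparisons, arrays of different number correlated at -0.222 to 0.173 and -0.313 to 0.275. Between the treated groups, same-numbered arrays correlated at 0.243 to 0.4 and others at -0.373 to 0.303. Of the 12 arrays, 7 correlated best with an array of their own number. The labels give no pairing, and the values mainly set replicate 1 apart from replicates 2 and 3, so pairing by number is not shown. A fit with the replicate number as a block was an alternative. The members and lists were chosen with earlier results of these data known. Named beside the members are, from each list and line, up to 3 called genes per direction with the smallest adjusted p, and the 3 genes most correlated with CD38, CR2 and CD72; genes given as levels only were chosen after their values were seen. Alternatives were other scalings, filters, probe set rules and fits, and arrays left out.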

Additional observations from a re-analysis of the deposited data

Results flagged for a closer look

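For 3 of the 10 members the response to the drug differed between the lines by the interaction term in limma. The L1236 response minus the L428 response was -5.82 ± 1.04 for CD38 (adjusted p = 0.0177), with responses of 0.00 in L1236 and 5.82 in L428. It was -2.94 ± 0.15 for CR2 (adjusted p = 8.68e-06), with responses of -0.03 in L1236 and 2.91 in L428. It was 0.91 ± 0.19 for CD72 (adjusted p = 0.0311), with responses of 0.97 in L1236 and 0.06 in L428, and was not called with the replicate number as a block (0.0534). Of 20 alternative settings, the difference was called in 17 for CD38, 20 for CR2 and 10 for CD72. The other probe set of CR2 (244097_at) was not called, at -0.04 ± 0.06 (adjusted p = 0.936 over all probe sets). The probe set used for CR2 was chosen through the group in which it rose. For each of the 3 genes, on the probe set used, the line without a called response stayed below the array medians.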

How the results depend on the processing

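Of the 10 members, 2 were called in the L428 response, 3 in the L1236 response, 3 for the difference between the responses and 6 between the untreated lines. In L428 the count was 7 with median centring (4 higher and 3 lower), 6 with array weights, 6 without all arrays numbered 1, 1 with only the arrays compared, and 2 to 4 with single arrays left out. In L1236 it was 7 with median centring (2 higher and 5 lower) and 1 to 3 with single arrays left out, and for the difference between the responses it was 1 to 3. Between the untreated lines it was 5 or 6 under every alternative run. Changes of direction with a call on either side were, with median centring, CD72 in L428 at -0.37 and FCRLA at -0.43 in both lines. Centring moved the median of all genes by -0.43 in L428 and -0.48 in L1236. The others were MZB1 in L428 at -0.57 with array weights and -0.51 without all arrays numbered 1. Values not called also changed sign, such as the difference of CD24 between the responses, at -0.28 with the mean of its probe sets. The estimate of the array weights stopped before convergence. Over all genes, 920 were called in L428 and 2955 in L1236, against 2592 and 6546 after quantile normalization, 12842 and 14098 after centring, 6561 and 9726 with array weights and 5717 and 6817 without all arrays numbered 1. With only the arrays compared, 206 were called in L428. With single arrays left out these were 368 to 3532 in L428 and 1506 to 4488 in L1236. For the difference between the responses 914 were called, against 442 to 2112 with single arrays left out, 5718 with array weights and 4697 without all arrays numbered 1. Between the untreated lines 5699 were called, against 8760 with array weights.

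With replicate number as a block, 2, 2, 2 and 6 members were called in the same order. MZB1 in L1236 (adjusted p = 0.0597) and the difference of CD72 (0.0534) lost their calls, and the block changed no other call of a member. Of 747 recomputed counts for the gene lists, 205 moved by over 1.5 times; the cause was not tested. Having 3 arrays a group limits the precision.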
